A study of Bos taurus with 2 samples.

Results

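CUBN, AMN, LRP2 and DAB2 encode the cubilin-megalin endocytic receptors and their adaptor, and these 4 genes, of 35643 features measured, were followed through nuclei of bovine (Bos taurus) blastoids and day-8 blastocysts. They were found by their symbols in the deposited feature lists, where each had 1 row in both libraries: CUBN is ENSBTAG00000005072, AMN is ENSBTAG00000015750, LRP2 is ENSBTAG00000004555 and DAB2 is ENSBTAG00000016152. A blastoid is a blastocyst-like structure built from stem cells. Here bEPSC, bXEN and bTSC lines were mixed in microwells at 8, 8 and 16 cells per well, in a medium with LIF at 20 ng/ml, activin A at 10 ng/ml, CHIR99021 and the CEPT survival cocktail, after the feeder cells had been depleted on gelatin. The blastocysts were collected at day 8, and both sources are labelled wild type. The breed and the number of structures pooled per library are not given in the labels used here. Frozen material of both kinds went through the same nuclei isolation and 3' droplet chemistry.

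Cubilin is a large receptor of absorptive epithelia that binds vitamin B12 carried by intrinsic factor, as well as albumin, apolipoprotein A-I and other carriers, but it has no membrane-spanning segment of its own. It reaches the apical surface and is taken up only together with amnionless, the product of AMN. Megalin, the product of LRP2, is a giant member of the LDL receptor family that binds many of the same ligands and retinol-, vitamin D- and B12-carrier complexes. DAB2 is the clathrin adaptor that binds the tails of such receptors and links them to coated pits. The receptors are known from the kidney tubule, the gut and the extraembryonic endoderm, where they feed maternal nutrients to the embryo.

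Each group had 1 library, so every difference below compares those 2 libraries and not the conditions, and no test across replicates was possible. Levels are UMIs (unique molecular identifiers) of a gene of the summed nuclei on the counts-per-million scale (CPM), and shares are shares of nuclei with at least 1 UMI. Ranges in parentheses are exact 95% intervals that cover counting error only. The counts were not scaled by transcript length, so levels are compared between groups for 1 gene and not between genes.

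The blastoid library held 1957 barcodes and 7575395 UMIs (median 2012 per barcode), and the blastocyst library 944 barcodes and 7029253 UMIs (median 6920). After filtering, 1914 and 827 nuclei were kept, and 1 barcode sequence occurred in both libraries. A nucleus was put on the trophectoderm side or on the hypoblast side when it had at least 3 UMIs of the gate genes GATA2 and GATA3 (trophectoderm) and GATA4, HNF4A and PDGFRA (hypoblast), with at least 75% of them from 1 of the lists. This gave 210 trophectoderm-side and 398 hypoblast-side nuclei in the blastocyst library, with medians of 9048.5 and 8577 UMIs. The blastoid library gave 156 trophectoderm-side nuclei (median 14915 UMIs) but 9 hypoblast-side nuclei. Undecided were 1746 blastoid barcodes, of which 1610 had under 4000 UMIs and a median of 15.8% ribosomal protein UMIs. A side is a range of a score and not a cell type: 28 of the 210 and 34 of the 398 blastocyst nuclei had exactly 3 gate UMIs, and 18 and 23 nuclei lay just outside with 2. In the blastoid library 24 of 156 had exactly 3, and 104 lay just outside. Among hypoblast-side blastocyst nuclei, 89 also had at least 2 UMIs of the epiblast genes NANOG and PRDM14, and GATA4 itself was detected in 78.

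The sides were checked against markers of trophectoderm and hypoblast. The summed trophectoderm markers stood at 3468 CPM in trophectoderm-side and 392 CPM in hypoblast-side blastocyst nuclei, and the hypoblast markers at 1329 and 7348 CPM. In trophectoderm-side blastoid nuclei these sums were 3619 and 473 CPM. The gate genes are part of those sums. Macrophage markers, summed over 9 genes, stayed at 12.3 to 19.8 CPM over these 3 groups, with C1QA and C1QB at 0 in both libraries. The 10 fibroblast markers stayed at 11.3 to 37.8 CPM.

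LRP2 was far more abundant on the trophectoderm side than on the hypoblast side in both libraries. In the blastocyst it stood at 3073 CPM (3000 to 3147) in trophectoderm-side nuclei and at 145 CPM (132 to 157) in hypoblast-side nuclei. Hypoblast-side LRP2 was therefore 21.3-fold lower (19.5 to 23.3). By single nuclei, trophectoderm-side LRP2 ran from 0 through a median of 2875 to 10958 CPM, and hypoblast-side LRP2 from 0 through a median of 0 to 1717 CPM. The ranges overlapped, but 162 of 210 trophectoderm-side nuclei held 10 or more LRP2 UMIs, against 7 of 398 on the hypoblast side. Trophectoderm-side nuclei held 82.9% of all blastocyst LRP2 UMIs and 32.0% of all UMIs.

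DAB2, the adaptor, followed the same division. It stood at 821 CPM (784 to 860) in trophectoderm-side and 40.4 CPM (34.1 to 47.5) in hypoblast-side blastocyst nuclei, which was 20.3-fold lower (17.2 to 24.2) on the hypoblast side. Single trophectoderm-side nuclei ran from 0 through a median of 765 to 2919 CPM. On the hypoblast side 339 of 398 nuclei had no DAB2 UMI, and a single nucleus held 27 of the 147. Without the nuclei that carried epiblast genes, that nucleus among them, DAB2 on the hypoblast side was 29.3 CPM (23.1 to 36.6).

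Cubilin and amnionless, the pair that makes up the vitamin B12 receptor, were scarce throughout the blastocyst library, with 36 CUBN and 68 AMN UMIs among 6861558. AMN had 4 UMIs in trophectoderm-side nuclei, or 1.82 CPM (0.496 to 4.66), and 55 UMIs in hypoblast-side nuclei, or 15.1 CPM (11.4 to 19.7). It was 8.30-fold higher on the hypoblast side (3.06 to 31.5), which held 80.9% of its UMIs and 53.0% of all UMIs. CUBN had 6 UMIs on the trophectoderm side, or 2.73 CPM (1.00 to 5.95), and 21 on the hypoblast side, or 5.77 CPM (3.57 to 8.82). The CUBN ratio of 2.11 had an interval from 0.824 to 6.40 that included 1, so a difference between the sides was not detectable at this depth.

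Between the sides of the blastocyst library, then, LRP2 and DAB2 were at least 2-fold lower on the hypoblast side and AMN was at least 2-fold higher. The CUBN ratio of 2.11 dropped under 2-fold in some settings, to 0.99 on the log2 scale with a gate minimum of 2 UMIs and to 0.61 without the epiblast-gated nuclei (11 against 6 UMIs). Of 15572 genes with 10 or more UMIs in both sums together, 13.5% were at least 2-fold lower and 20.3% at least 2-fold higher. Among the 872 genes with at least 500 trophectoderm-side UMIs, 257 were at least 2-fold lower on the hypoblast side. The hypoblast-side level was 4.70% of the trophectoderm-side level for LRP2 and 4.92% for DAB2, and 15 and 19 of those 872 genes had a lower percentage. Genes with a lower one included SLC34A2, a phosphate cotransporter of apical membranes, at 1.24%, and PLS1, an actin bundler of microvilli, at 1.43%. The part of free RNA in the remaining hypoblast-side signal of LRP2 and DAB2 was not tested.

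**Figure D1:**
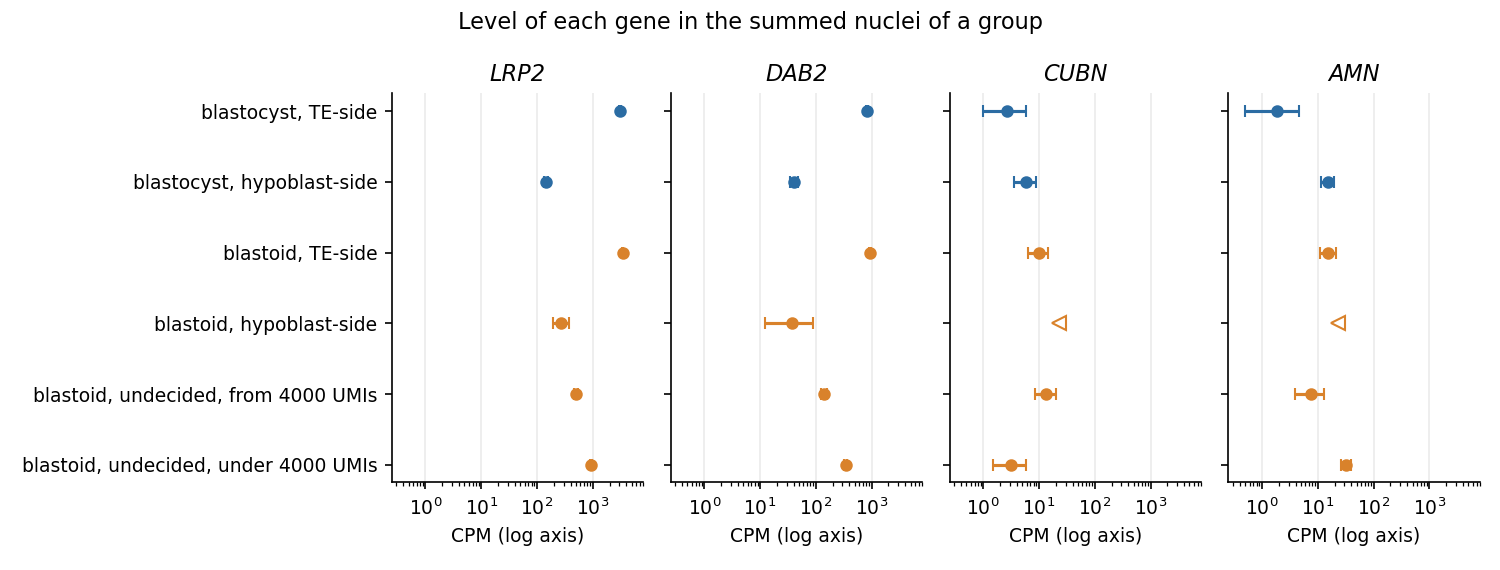
Levels of the 4 genes in CPM (log axis) in the summed nuclei of 6 groups. Points are summed levels, bars exact 95% Poisson intervals, blue the blastocyst and orange the blastoid library, and open triangles mark the level that 3 UMIs would give where no UMI was found (TE, trophectoderm). LRP2 and DAB2 drop from 3073 and 821 CPM on the blastocyst's trophectoderm side to 145 and 40.4 CPM on the blastocyst's hypoblast side, whereas AMN is higher there.

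The blastoid's trophectoderm-side nuclei carried LRP2 and DAB2 at close to the embryo's levels. LRP2 stood at 3445 CPM (3373 to 3518) in the blastoid against 3073 in the blastocyst, a ratio of 1.12 (1.09 to 1.16), and DAB2 at 930 CPM (893 to 968) against 821, a ratio of 1.13 (1.06 to 1.20). Both intervals exclude 1, but they hold no error between cultures or embryos. The single-nucleus ranges overlapped, since blastoid LRP2 ran from 0 through a median of 3017 to 12231 CPM, and DAB2 from 0 through 880 to 2369 CPM.

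CUBN and AMN were higher in the blastoid's trophectoderm-side nuclei, though still scarce. CUBN had 25 UMIs at 9.91 CPM (6.41 to 14.6), 3.63-fold the blastocyst level (1.45 to 10.8). AMN had 39 UMIs at 15.5 CPM (11.0 to 21.1), 8.49-fold the blastocyst level (3.06 to 32.7). The UMIs were spread over 21 and 26 of the 156 nuclei, with at most 3 and 5 in any nucleus. The shallow barcodes of the same library held 32.5 CPM of AMN and 3.18 CPM of CUBN, and the part of free RNA in the trophectoderm-side levels was not tested. Of 15107 genes compared between the trophectoderm sides, 21.9% were at least 2-fold higher in the blastoid and 12.9% at least 2-fold lower.

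With 9 nuclei and 132143 UMIs, the blastoid's hypoblast side allowed little comparison. LRP2 had 36 UMIs there, or 272 CPM (191 to 377), 12.6-fold below the blastoid's trophectoderm side (9.13 to 18.1). DAB2 had 5 UMIs, or 37.8 CPM (12.3 to 88.3), 24.6-fold below (10.5 to 75.8). Of 13448 genes compared between these sides, 35.3% were at least 2-fold higher and 9.28% at least 2-fold lower on the hypoblast side. The median log2 ratio of the 74 genes with at least 100 UMIs in both sums was 0.69. Of these 36 LRP2 UMIs, 14 came from 1 nucleus, and 4 of the 9 nuclei clustered with the trophectoderm-like nuclei, where they held 24 of the 36. Against the blastocyst's hypoblast side, the LRP2 ratio was 1.88 (1.31 to 2.64), or 1.27 (0.789 to 1.94) without the nucleus that held 14 of the UMIs, and the DAB2 ratio 0.937 (0.300 to 2.24). The median of the 65 genes with at least 100 UMIs in both sums was 0.88 on the log2 scale. In the small sum of the 9 nuclei, 100 UMIs is a far higher level than in the larger sum. That minimum selects genes high in the 9 nuclei, so neither this median nor the 0.69 above measures a scaling offset. Of 14279 genes compared between the hypoblast sides, 40.9% were at least 2-fold higher in the blastoid, with counts under 3 UMIs set to 3. In the 9 nuclei that floor is 22.7 CPM, so a gene without a UMI there can be called higher. CUBN was such a gene, with 0 against 21 UMIs. The 35.3% above holds the same floor, so neither share is read as a difference in level. CUBN and AMN had no UMI in the 9 nuclei. The 3 UMIs that a count of 0 allows would be 22.7 CPM, above the blastocyst's level of either gene, so no difference was detectable.

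Most blastoid barcodes lay on neither side, and they split the genes differently. The undecided barcodes under 4000 UMIs held 10901 CPM of summed trophectoderm markers and 788 CPM of hypoblast markers. Their median was 0 gate UMIs, so undecided describes the gate counts and not a lineage. The comparison with the blastocyst's trophectoderm side above covers only the 156 blastoid nuclei that passed the gate. In the 1610 undecided barcodes under 4000 UMIs, LRP2 stood at 942 CPM (909 to 977) and DAB2 at 344 CPM (324 to 365), 3.65-fold and 2.70-fold below the trophectoderm side. The trophectoderm side was at least 2-fold higher for 39.6% of 15336 genes and lower for 21.1%, with the median of the well-counted genes shifted by 0.59 on the log2 scale. In the 136 undecided barcodes from 4000 UMIs, LRP2 stood at 500 CPM (466 to 535) and DAB2 at 141 CPM (124 to 161), 6.89-fold and 6.57-fold below the trophectoderm side, which was at least 2-fold higher for 15.9% and lower for 19.9% of 15235 genes. By summed CPM, AMN was highest in the shallow barcodes. It stood at 32.5 CPM (26.5 to 39.4; 102 UMIs) in the shallow barcodes, at 15.5 on the trophectoderm side and at 7.41 CPM (3.83 to 12.9; 12 UMIs) in the deeper undecided barcodes. CUBN stood at 3.18 CPM (1.53 to 5.86; 10 UMIs) in the shallow and 13.6 CPM (8.52 to 20.6; 22 UMIs) in the deeper ones. By summed CPM the shallow barcodes thus had the highest AMN and the lowest CUBN level of the 3 groups, with 10.2 AMN UMIs per CUBN UMI (5.33 to 21.9) against 1.56 (0.921 to 2.69) on the trophectoderm side. With each barcode thinned to 2000 UMIs, AMN was found in 41 of 673 shallow barcodes (6.09%, 4.41 to 8.17). It was found in 8 of 152 trophectoderm-side nuclei (5.26%, 2.30 to 10.1) and in 0 of 136 deeper undecided barcodes. CUBN was found in 1.19%, 1.32% and 2.21% of these. Detection at equal depth thus did not separate the shallow barcodes from the trophectoderm side. The shallow barcodes differ from the others in depth and in ribosomal content, as given above, and the part of either in the AMN level was not tested.

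The order of levels over the blastocyst's sides and the blastoid's groups can be set out gene by gene. LRP2 ran from 3445 CPM (blastoid trophectoderm side) through 3073, 942, 500 and 272 to 145 CPM (blastocyst hypoblast side), and no neighbours in that order had overlapping intervals with all nuclei included. Without the nucleus that held 14 of the 36 UMIs behind the 272 CPM of the blastoid's hypoblast side, that level was 184 CPM (115 to 278) and overlapped the blastocyst's hypoblast side. DAB2 ran through 930, 821, 344 and 141 to 40.4 and 37.8 CPM, the last pair, the hypoblast sides, overlapping. For AMN, the shallow blastoid barcodes at 32.5 CPM were followed by blastoid trophectoderm-side (15.5) and blastocyst hypoblast-side nuclei (15.1), which did not differ beyond counting error. The deeper undecided barcodes (7.41) and the blastocyst's trophectoderm side (1.82) came last, each overlapping its neighbour. For CUBN every pair of neighbours from 13.6 through 9.91, 5.77 and 3.18 to 2.73 CPM had overlapping intervals.

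Over all kept barcodes, the blastoid library had 1672 CPM of LRP2 against 1186 in the blastocyst (ratio 1.41, 1.37 to 1.45) and 491 against 321 CPM of DAB2 (1.53, 1.45 to 1.61). AMN stood at 20.9 against 9.91 CPM (2.10, 1.57 to 2.84) and CUBN at 8.02 against 5.25 (1.53, 0.995 to 2.38). Of 19221 genes, 24.2% were at least 2-fold higher in the blastoid library and 20.7% at least 2-fold lower, and the median over well-counted genes was -0.25 on the log2 scale. In barcodes of at least 4000 UMIs, the AMN difference shrank to 0.27 on the log2 scale, from 1.07. Those of LRP2, DAB2 and CUBN were 0.86, 0.87 and 1.06 there, from 0.50, 0.61 and 0.61. Fewer cells of a type and less RNA per nucleus cannot be told apart in these sums.

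Sharing of the genes within a nucleus was compared after each nucleus was thinned to 2000 UMIs. LRP2 was then detected in 192 of 208 trophectoderm-side blastocyst nuclei (92.3%, 87.8 to 95.5) and DAB2 in 138 (66.3%, 59.5 to 72.7). On the blastocyst's hypoblast side these counts were 69 of 396 (17.4%, 13.8 to 21.5) and 15 of 396 (3.79%, 2.14 to 6.17). Without thinning, the shares were 98.1% and 92.4% on the trophectoderm side and 49.0% and 14.8% on the hypoblast side. In trophectoderm-side blastoid nuclei, thinned LRP2 was found in 148 of 152 (97.4%, 93.4 to 99.3) and DAB2 in 111 (73.0%, 65.2 to 79.9), with intervals overlapping those of the embryo. The median nucleus held 6 LRP2 UMIs per 2000 in either library, and 1 DAB2 UMI in the blastocyst against 2 in the blastoid. Epiblast-gated blastocyst nuclei, 89 of which are also hypoblast-side nuclei, had thinned LRP2 in 17.9% and DAB2 in 7.55% of 106 nuclei (median depth 9868.5 UMIs). Hypoblast-side nuclei without the epiblast genes, at a median of 8071 UMIs, had LRP2 in 16.9% and DAB2 in 3.58%. The intervals of these shares overlapped, so detection did not set the hypoblast side apart from the epiblast-gated nuclei, and because most of those are the same nuclei they are no independent measure of background.

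**Figure D2:**
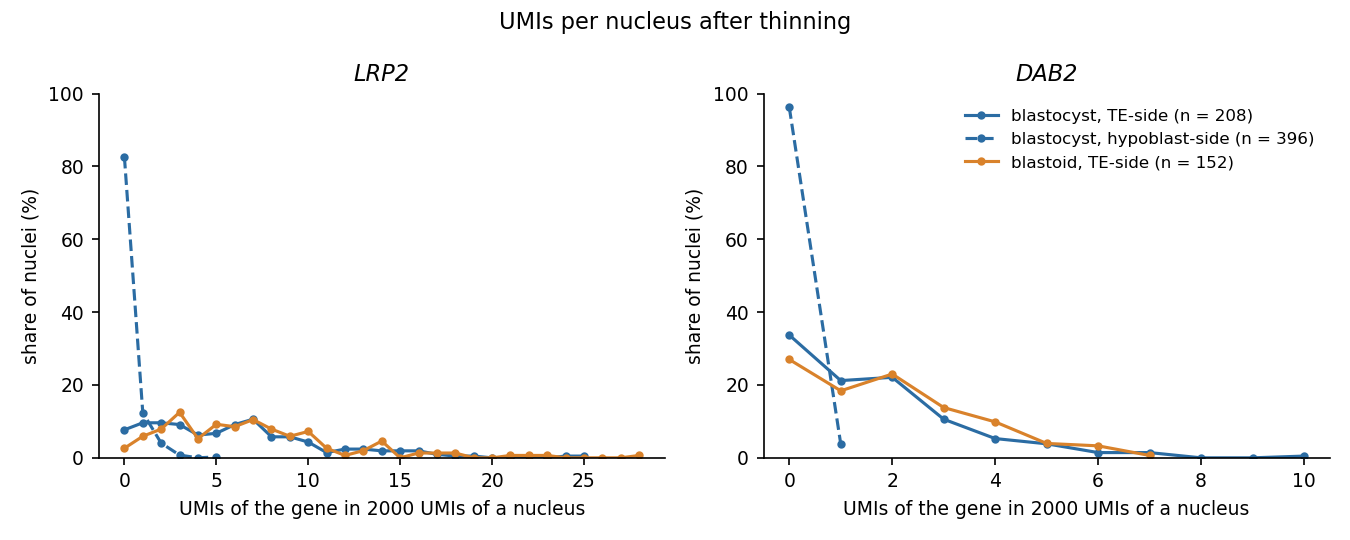
Distribution of LRP2 and DAB2 UMIs per nucleus after thinning each nucleus to 2000 UMIs, as the share of nuclei (%) at each UMI number. The 2 trophectoderm-side curves lie close together, with a median of 6 LRP2 UMIs in both libraries, and 82.6% of hypoblast-side blastocyst nuclei (dashed) have no LRP2 UMI.

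CUBN and AMN were found in few thinned nuclei. AMN was found in 0 of 208 trophectoderm-side blastocyst nuclei, which allows a share of up to 1.44% (3 of 208), in 14 of 396 on the hypoblast side (3.54%, 1.95 to 5.86) and in 8 of 152 trophectoderm-side blastoid nuclei (5.26%, 2.30 to 10.1). CUBN was found in 1 of 208, 8 of 396 and 2 of 152 of these nuclei. Unthinned, AMN was detected in 11.3% (8.37 to 14.8) of hypoblast-side and 1.90% (0.521 to 4.80) of trophectoderm-side blastocyst nuclei at similar median depths. For epiblast-gated nuclei the unthinned AMN share was 10.4% (5.30 to 17.8), so the hypoblast side, to which most of them also belong, did not stand apart from them.

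**Figure D3:**
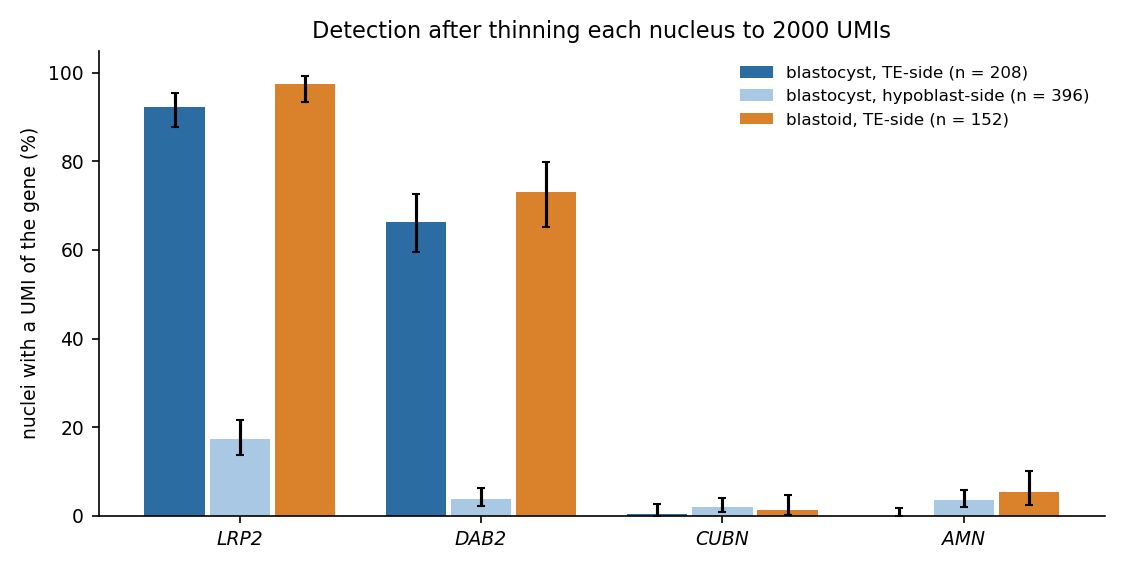
Share of nuclei (%) with a UMI of each gene after thinning to 2000 UMIs, with exact 95% binomial intervals. LRP2 and DAB2 are found in most trophectoderm-side nuclei of both libraries (92.3% and 97.4% for LRP2), and CUBN and AMN in at most 5.26% of nuclei in any of the 3 groups.

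LRP2 and DAB2 were found together in 132 of 208 trophectoderm-side blastocyst nuclei (63.5%, 56.5 to 70.0) and in 109 of 152 trophectoderm-side blastoid nuclei (71.7%, 63.8 to 78.7). The product of their single shares would give 127 and 108 nuclei. In the blastocyst, DAB2 was found in 132 of the 192 trophectoderm-side nuclei with LRP2 (68.8%, 61.7 to 75.2) and in 6 of the 16 without it (37.5%, 15.2 to 64.6). On the hypoblast side both were found in 2 of 396 nuclei, against a product of 2.61. Across nuclei of 1 side, the Pearson correlation of the log-transformed thinned counts was 0.22 over 208 trophectoderm-side blastocyst nuclei, 0.17 over 152 blastoid ones and -0.02 over 396 hypoblast-side ones. The nuclei of a side share 1 library.

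The ratio of LRP2 to DAB2 UMIs had overlapping intervals on the 2 trophectoderm sides. There were 3.74 LRP2 UMIs per DAB2 UMI (3.55 to 3.94) on the trophectoderm side of the blastocyst and 3.70 (3.54 to 3.88) on that of the blastoid. On the hypoblast side of the blastocyst, where both were scarce, the value was 3.58 (2.97 to 4.33), and it was 4.49 (3.50 to 5.83) without the epiblast-gated nuclei. In the shallow undecided blastoid barcodes it was 2.74 (2.55 to 2.94), and its interval did not reach those of the trophectoderm sides.

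CUBN and AMN were rarely seen in the same nucleus. Unthinned, both were detected in 4 of 398 hypoblast-side blastocyst nuclei, where the product of their shares gives 2.26, in 0 of 210 trophectoderm-side ones and in 5 of 156 trophectoderm-side blastoid nuclei, where the product gives 3.50. All 4 genes were detected together in 5 of 156 blastoid trophectoderm-side nuclei and in 0 of 210 and 0 of 398 blastocyst nuclei, unthinned and at unequal depths. Thinned to 2000 UMIs this held for 1 of 152 blastoid and 0 of 208 and 0 of 396 blastocyst nuclei, and thinned to 4000 UMIs for 0 of 138 blastoid nuclei, so no difference was detectable at equal depth. On the blastocyst's hypoblast side AMN was detected in 14.9% (10.2 to 20.7) of the nuclei with an LRP2 UMI and in 7.88% (4.57 to 12.5) of those without, unthinned. Thinned to 4000 UMIs, these shares were 7.63% (3.55 to 14.0; 9 of 118) and 2.67% (1.08 to 5.43; 7 of 262), and thinned to 2000 UMIs they were 2.90% (2 of 69) and 3.67% (12 of 327). The intervals overlapped at each depth, and the direction differed at 2000 UMIs.

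Within the hypoblast side, nuclei with a GATA4 UMI had more LRP2 than those without, at 207 (176 to 241) against 127 CPM (115 to 141), a ratio of 1.62 (1.34 to 1.96), and this difference rested on 1 nucleus. That GATA4-positive nucleus of 34356 UMIs, the only hypoblast-side nucleus in the trophectoderm-like cluster, held 59 of their 162 LRP2 UMIs, and without it the levels were 137 (112 to 167) and 127 CPM, a ratio of 1.08 (0.858 to 1.35). DAB2 stood at 25.5 (15.6 to 39.4) against 44.5 CPM (37.1 to 52.9). A GATA4-negative nucleus held 27 of the 127 DAB2 UMIs behind the second level, and without it the ratio was 0.724 (0.424 to 1.18), whereas without the nucleus of 34356 UMIs it was 0.360 (0.181 to 0.651). DAB2 was detected in 3.85% and 3.77% of these nuclei thinned to 2000 UMIs and in 15.4% and 14.7% unthinned. AMN stood at 19.1 and 14.0 CPM and CUBN at 3.83 and 6.30 CPM, with intervals of the ratio that included 1. Of 14015 genes, 3.82% were at least 2-fold higher with GATA4 and 3.32% at least 2-fold lower, and none of the 4 genes passed 2-fold with all nuclei. Between hypoblast-side nuclei with and without the epiblast genes, DAB2 stood at 69.5 against 29.3 CPM, 2.38-fold (1.69 to 3.33), with 27 of the 70 UMIs in the same GATA4-negative nucleus, without which the ratio was 1.48 (0.998 to 2.18), and CUBN at 9.93 against 4.18 CPM (2.38, 0.905 to 6.16; 1.92 without 1 nucleus). LRP2 (179 against 131 CPM) and AMN (11.9 against 16.3 CPM) were within 2-fold, and without the nucleus of 34356 UMIs LRP2 stood at 124 against 131 CPM. In this comparison 3.77% of 14015 genes were at least 2-fold higher and 3.20% lower.

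Over all 753 kept blastocyst nuclei with 2000 UMIs or more, the 5 genes whose thinned counts were most like those of LRP2, of 5756 genes with at least 200 UMIs, were GCNT1 (r = 0.73), FMNL2 (0.73), PLS1 (0.72), NEDD4L (0.68) and SLC1A1 (0.67). GCNT1 encodes a glycosyltransferase of mucin-type glycans, NEDD4L a ubiquitin ligase and SLC1A1 a glutamate transporter. DAB2 was the eighth of the list at 0.63. For DAB2, LRP2 came first, and PLS1 (0.60), GCNT1 (0.58) and NEDD4L (0.55) were among the 5 most like genes. These values are descriptions over nuclei of 1 library, and they span the difference between the sides. On the trophectoderm sides of blastoid and blastocyst, FMNL2 stood at 195 against 1829 CPM, SLC1A1 at 184 against 1540, GCNT1 at 498 against 1187, PLS1 at 841 against 1420 and NEDD4L at 1727 against 1553 CPM. The first 3 were at least 2-fold lower in the blastoid, as were 12.9% of all genes. Because the 5 were chosen in the blastocyst library alone, which favours genes high on its trophectoderm side, nothing is read from that count. For CUBN no gene reached more than 0.18 and for AMN none more than 0.16, which in counts this sparse names no like gene.

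The wider uptake route was described with 8 lists. Among chaperones and adaptors of the receptors, 4 of 14 measured genes were at least 2-fold lower on the blastocyst's hypoblast side and 3 at least 2-fold higher, against 13.5% and 20.3% of all genes. DAB2's motor partner MYO6 stood at 63.2 against 311 CPM, and the apical scaffold NHERF1 at 51.7 against 236 CPM. GIPC2, of a family of PDZ adaptors that bind receptor tails, had 1 UMI against 219, or 99.8 CPM on the trophectoderm side, a 363-fold difference with a counting interval from 64.5 to 14400. DAB1, the DAB2 relative that works downstream of reelin receptors, was the reverse, at 152 against 2.73 CPM, 55.6-fold higher (25.4 to 152). LRPAP1, the chaperone of megalin, was within 2-fold at 109 against 136 CPM.

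Of 12 other LDL receptor family members, 4 were at least 2-fold higher on the hypoblast side and 1 lower, against 20.3% and 13.5% of all genes, with a median log2 ratio of 0.08 against 0.21 over all genes tested. SORL1, a sorting receptor, stood at 117 against 4.10 CPM, 28.4-fold higher (14.8 to 62.6).

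In the clathrin list 0 of 21 genes were at least 2-fold higher on the hypoblast side and 5 at least 2-fold lower, against 20.3% and 13.5% of all genes, with a median log2 ratio of -0.73 against 0.21. PICALM, a clathrin assembly protein, stood at 278 against 926 CPM, and EPN1, an epsin, was the highest at 1.64-fold (1.34 to 2.02). Among genes of endosomes and their acidification the counts were again 0 and 5 of 21, with a median of -0.26, and ATP6V1B1, a proton pump subunit, stood at 9.62 against 71.1 CPM. The endosome list's highest gene was ATP6V0A1 at 1.93-fold (1.28 to 2.99).

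Among lysosome genes 9 of 17 were at least 2-fold lower on the hypoblast side and 2 higher, against 13.5% and 20.3% of all genes, with a median log2 ratio of -1.19 against 0.21. GLA, the lysosomal alpha-galactosidase, stood at 6.32 against 26.4 CPM and LGMN, a lysosomal protease, at 16.8 against 6.83 CPM. Of 12 apical and absorptive genes 6 were lower and 3 higher, against the same shares of all genes. SLC34A2 stood at 6.32 against 511 CPM and MME, the peptidase neprilysin, at 62.4 against 8.65 CPM.

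In vitamin B12 handling, the route that cubilin and amnionless serve, 2 of 11 genes were at least 2-fold higher on the hypoblast side and 1 lower, near the 20.3% and 13.5% of all genes. LMBRD1, which lets the vitamin leave the lysosome, stood at 415 against 134 CPM, 3.09-fold higher (2.72 to 3.51), and MTR, the B12-dependent methionine synthase, at 26.9 against 51.9 CPM, 0.519-fold (0.392 to 0.686). TCN2, the blood carrier of B12, was the gene at least 2-fold lower, on 4 and 9 UMIs. Of the ligands, 7 of 18 had enough UMIs, 2 higher and 1 lower, against 20.3% and 13.5% of all genes. The lower one was again TCN2, which is in both lists. APOE, a lipoprotein, stood at 13.2 against 5.92 CPM, and CST3, cystatin C, was within 2-fold at 10.7 against 15.5 CPM.

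**Figure D4:**
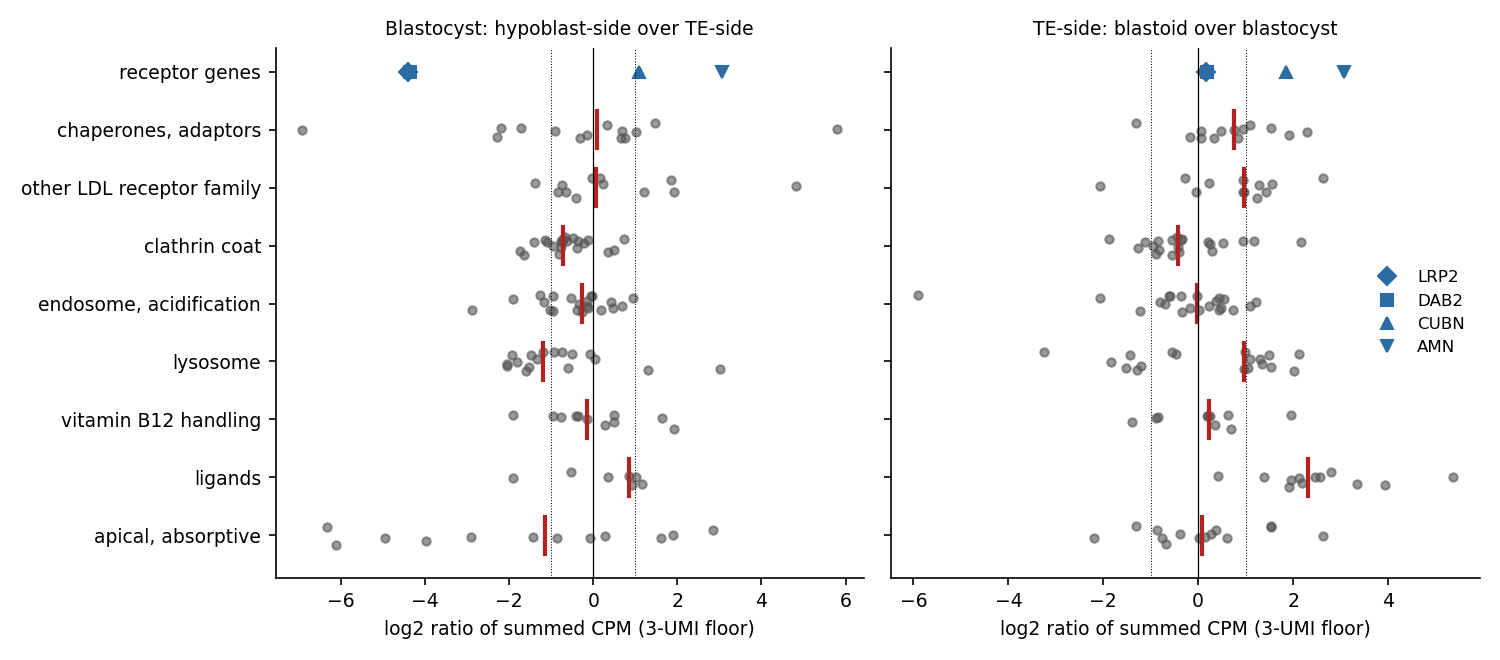
Log2 ratios of summed CPM for the 4 receptor genes (blue) and the tested genes of 8 lists (grey points, red bar for the median), with counts under 3 UMIs set to 3 and dotted lines at 2-fold. Left, hypoblast side over trophectoderm side in the blastocyst: LRP2 and DAB2 lie at -4.41 and -4.35. Right, blastoid over blastocyst on the trophectoderm side: ligands have the highest list median, 2.32.

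Between the trophectoderm sides of blastoid and blastocyst, ligands showed the widest gap. Of 12 ligand genes with enough UMIs, 11 were at least 2-fold higher in the blastoid and 0 lower, against 21.9% and 12.9% of all genes, with a median log2 ratio of 2.32 against 0.14 over all genes tested. RBP4, the retinol carrier that megalin takes up, had 143 UMIs (56.7 CPM) against 1, a ratio of 124 (22.0 to 4949), and APOA1, the protein of high-density lipoprotein, was the lowest at 1.33-fold (1.14 to 1.55), 163 against 123 CPM. The 18 ligand genes summed to 4571 CPM in the shallow blastoid barcodes, 749 on the blastoid's trophectoderm side and 223 on the blastocyst's. For RBP4, TTR, APOE, CST3 and CLU the trophectoderm-side level was 11.6% to 28.8% of the shallow barcodes' level, while AMN was at 47.6%, CUBN at 311% and LRP2 at 365%. The part of free RNA in the ligand levels was not tested.

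The other lists held genes on both sides of 2-fold between the trophectoderm sides, where 21.9% of all genes were at least 2-fold higher in the blastoid and 12.9% lower. Lysosome genes were higher in 8 of 18 and lower in 6, with CTSZ, a cathepsin, at 101 against 25.1 CPM and MITF, a regulator of lysosomal genes in several tissues, at 48.4 against 460 CPM. LDL receptor family genes were higher in 5 of 12 and lower in 1. LRP1, a broad scavenger relative of megalin, stood at 48.0 against 7.74 CPM, 6.19-fold (3.71 to 11.0). Among chaperones and adaptors 4 of 13 were higher and 1 lower, with MESD, the folding chaperone of the family, at 109 against 28.7 CPM and NHERF1 at 94.7 against 236 CPM.

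In the clathrin and endosome lists alike, 2 of 21 genes were at least 2-fold higher in the blastoid and 3 lower, against 21.9% and 12.9% of all genes. SNAP91 (88.4 against 19.6 CPM) and HIP1 (124 against 458 CPM) marked the ends of the clathrin list. In the endosome list, CLCN5, a chloride-proton exchanger that megalin-dependent uptake in the kidney needs, stood at 438 against 205 CPM, 2.14-fold (1.92 to 2.40). ATP6V1B1 had 0 UMIs in the blastoid's trophectoderm-side nuclei against 156, at least 59.8-fold lower with the floor of 3 UMIs over the group. Vitamin B12 genes were at least 2-fold higher in 1 of 10 and lower in 1, each under the share of all genes. The higher one, named after its value was seen, was TCN2, at 15.9 against 4.10 CPM on 40 and 9 UMIs, and the lower one MMAA, at 7.14 against 18.7 CPM, while MMADHC at 64.2 against 39.6 CPM was within 2-fold. Of 14 apical genes 3 were higher and 2 lower, near the same shares of all genes, with SLC9A3, a sodium-proton exchanger of brush borders, at 157 against 25.5 CPM and STX3, an apical syntaxin, at 36.1 against 89.7 CPM.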

How the data were processed

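Nuclei from 1 blastoid and 1 blastocyst library were analysed. What the authors deposited are raw UMI counts, a matrix of features by barcodes whose header names Cell Ranger 7.2.0, whereas the submitters' processing notes name Cell Ranger 7.1.0 and Seurat 4.3.0. Genome build, annotation and cell calling are not given in the sources used here. The authors' barcode set was used as deposited. No coordinates or sequences are given.

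Barcodes with at least 500 genes and under 10% mitochondrial UMIs (13 genes) were kept, and Scrublet (scanpy 1.11.5) scores removed the top 0.8% per 1000 barcodes, 30 of 1944 and 6 of 833. Clusters (leidenalg 0.10.2, resolution 0.5) left out markers and members. Clusters above 5% ribosomal UMIs were called ribosomal-rich. A name needed at least 3 markers of a class and 2 times as many as of any other class. This left blastocyst cluster 4, with 4 epiblast and 3 hypoblast markers, unnamed. No other class could have more markers among the top 10 genes, and a shallow cluster needed at least 1 marker there. A condition of 1 gate gene was added after the clusters were seen. Without it blastoid cluster 3, led by LMX1A, LDB2 and NLGN1, took the hypoblast name from 3 markers, LAMA1 and COL18A1 among them. The same condition left blastocyst cluster 3 unnamed, with 4 trophectoderm markers, KRT8 and KRT18 among them.

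Counts of a group were summed, and a list gene counted with at least 10 UMIs in the 2 sums. Named list genes are the highest and lowest ratio with at least 50 UMIs; MYO6, NHERF1, LRPAP1, SLC34A2, TCN2 and the ligands TTR, APOE, CST3 and CLU were added after their values were seen, as were the genes set beside LRP2 by percentage. Members and lists were chosen with earlier results of these data known. Of the lists, FOLR1, ATP6V0A2 and ATP6AP2 are among the symbols without a match, which were not analysed here. Some genes that the naming rule selects are not reported here. TCN2 and CBLIF are in 2 lists. The ratio of 2 sums and the counting intervals were tested on simulated counts, drawn without added spread between nuclei. Gating, clustering, doublet removal and the 2-fold calls with the floor were not tested in this way.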

Additional observations from a re-analysis of the deposited data

How the results depend on the processing

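No paired analysis was possible because each group had 1 library, and no replicate could be left out. Values are log2 ratios. Hypoblast over trophectoderm side in the blastocyst, LRP2 (-4.41) became -4.69 with all gate UMIs from one list, -4.56 from 1000 genes, -4.58 as a mean over nuclei, -4.62 by named clusters and -4.55 without epiblast-gated nuclei, and DAB2 (-4.35) became -4.75 as a mean over nuclei, -4.01 by named clusters and -4.81 without epiblast-gated nuclei. Blastoid over blastocyst on the trophectoderm side, LRP2 (0.16) became 0.03 with a gate minimum of 2 UMIs, 0.09 with one list, 0.10 as a mean over nuclei and 0.27 for sides within their own named cluster, and DAB2 (0.18) became 0.04 with a gate minimum of 2. On the hypoblast side LRP2 (0.91) became 1.41 with one list and 0.03 after median scaling. DAB2 (-0.09) became -0.97 after median scaling and 0.42 as a mean over nuclei, on 5 blastoid UMIs. Median scaling there rests on 65 genes selected for high counts in the 9 blastoid nuclei, so it is no neutral reference. In the whole libraries, barcodes of at least 4000 UMIs gave 0.86 for LRP2 (0.50), 0.87 for DAB2 (0.61), 0.27 for AMN (1.07) and 1.06 for CUBN (0.61, on 49 and 36 UMIs). Median scaling gave 0.74 and 0.86 for LRP2 and DAB2. LRP2 and DAB2 together were found in 83.1% and 91.4% of trophectoderm-side blastocyst nuclei at 4000 UMIs and unthinned, in 91.3% and 92.9% of blastoid ones, in 7.29% of hypoblast-side blastocyst nuclei unthinned, and in 0% of blastoid hypoblast-side nuclei with a gate minimum of 5. With at least 100 UMIs, 6 (16 with 10) list genes were at least 2-fold higher on the hypoblast side and 19 (35 with 10) in the blastoid. Without the nucleus with most UMIs of the gene, hypoblast over trophectoderm side became -4.57 for LRP2 and -4.63 for DAB2 in the blastocyst, the blastoid over blastocyst hypoblast side 0.35 for LRP2, and epiblast-gated over other hypoblast-side nuclei -0.08 for LRP2 (0.44). The causes were not tested. CUBN ratios rest on 6 blastocyst trophectoderm-side UMIs (hypoblast over trophectoderm side 0.61 to 2.03 over the alternatives) and AMN ratios on 4 (2.55 to 3.46). CUBN and AMN gave no value for the blastoid's hypoblast side. Sides within named clusters and the removal of epiblast-gated or single nuclei were chosen after seeing the data.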
